A study of Drosophila melanogaster with 20 samples.

Results

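The genes described here encode proteins that act on GA-rich promoters of *Drosophila*: *Trl*, *psq*, *lolal* and *Clamp*, which encode GAGA-binding factors and a partner of them, and *E(bx)*, *Iswi*, *Nurf-38* and *pzg*, which encode subunits and an associate of the remodeler NURF. They were chosen by their FlyBase symbols, with earlier results of these data known, and all 8 had a row among the 17659 genes of the count table. Their nascent RNA was measured by neuRNA-seq in Kc167 cells, an established cell line that the labels give as female, embryonic and of the dorsal closure stage, and that the study describes as tetraploid. In the GAF knockdown (replicates 2 and 3), cells received dsRNA against GAF, the product of *Trl*. In the Mi-2 knockdown (replicates 1 and 2), they received dsRNA against Mi-2, an ATP-dependent remodeler of the CHD family. All 4 libraries were thus from dsRNA-treated cells, and no mock-treated library was analysed here, so a difference between the knockdowns cannot be assigned to either of them. EU, a uridine analog, labelled the RNA (0.2 mM, over 1 h), which was then captured and read as single 50 bp reads. Nothing in the labels says that the libraries of a knockdown came from separate cultures, so the p-values measure the spread between these libraries, which may be technical.

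GAF binds GAGAG elements through a single zinc finger and multimerizes through a BTB domain, and it is known for keeping promoters free of nucleosomes together with NURF. Pipsqueak, the product of *psq*, is a BTB protein that binds the same element through its Psq repeats, and Batman, the product of *lolal*, is a small BTB protein that pairs with both. CLAMP is a zinc finger protein that binds longer GA repeats and is known for bringing the dosage compensation complex to the male X chromosome. NURF slides nucleosomes with the ATPase Iswi, the large scaffold E(bx), the inorganic pyrophosphatase Nurf-38 and the histone chaperone Caf1-55. Putzig, the product of *pzg*, associates with NURF and with the promoter factors DREF and TRF2.

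The libraries held 6111424 and 12563919 counts on genes in the GAF knockdown, against 3966515 and 5686837 in the Mi-2 knockdown, and the shallowest was thus Mi-2 knockdown replicate 1. Values are given as counts and as CPM, the usual depth-scaled count, here with library totals scaled by TMM. Of 9 hemocyte markers, which Kc167 cells are known to express, 8 passed the filter on low counts. *NimC1* had 0 and 6 counts in the GAF knockdown, against 0 and 2 in the Mi-2 knockdown, and did not pass. The summed level of the 9 markers was between 5810 and 5984 CPM in the GAF knockdown and between 5254 and 5533 CPM in the Mi-2 knockdown. Most of it came from *srp*, *ush*, *Hml* and *Pxn*. *Pxn*, *vkg* and *Col4a1* were called higher in the GAF knockdown and 0 lower (3.40% and 6.06% of all genes tested). The other 5 were not called. Of these, *srp*, *Hml* and *eater* had log2 fold changes above 0, and *crq* (-0.38) and *ush* (-0.03) below. *eater* had only 0 and 6 counts in the Mi-2 knockdown. With either GAF knockdown library left out only *Pxn* was called. Of the markers of other cell types, *PPO1* and *PPO2* of crystal cells had 0 counts in all 4 libraries. *lz*, also of crystal cells, had 11 and 13 counts in the GAF knockdown, against 0 and 0 in the Mi-2 knockdown. The summed level of all 9 with a row was between 64.8 and 88.9 CPM in the GAF knockdown and between 85.3 and 107 CPM in the Mi-2 knockdown. Most of it came from the neuronal gene *elav*, at 72.3 and 49.8 CPM in the GAF knockdown, against 78.7 and 89.0 CPM in the Mi-2 knockdown. The part of these markers in the results below was not tested, and fewer cells of a type and less RNA per cell cannot be told apart in such bulk samples. Genes were called at an adjusted p under 0.1 in the quasi-likelihood test of edgeR, adjusted by Benjamini-Hochberg over all 7826 genes tested.

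*Trl* (FBgn0013263) was counted only in an intron. On chromosome 3L (dm6, minus strand, 14747929 to 14761049) it spans 13121 bp with 10 annotated transcripts. The gene *CG42507* covers 10034 bp of it on the same strand and *Tsen34* covers 530 bp around its start. Reads shared by several genes of a strand went to none of them, as the counts show: 1557 of the 1559 genes that lie wholly under others had 0 counts in all 4 libraries, *CG42507* among them. What remains of *Trl* is one stretch of 2557 bp from 14757963 to 14760519, and 0 exons of any transcript touch it. The overlaps are those of a later annotation than the one the reads were counted on. The counts of *Trl* therefore hold no reads from its exons and check nothing about the mRNA that the dsRNA targets.

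In this intron *Trl* had 43 and 138 counts in the GAF knockdown, against 53 and 68 in the Mi-2 knockdown. That is 6.97 and 10.9 CPM in the GAF knockdown, against 13.4 and 12.3 CPM in the Mi-2 knockdown. Both GAF knockdown libraries were below both Mi-2 knockdown libraries, but only replicate 2 stood clearly apart. Its 95% exact Poisson interval, which covers counting error only, ran from 5.05 to 9.39 CPM, whereas that of replicate 3, from 9.12 to 12.8 CPM, overlapped those of the Mi-2 knockdown libraries. The log2 fold change was -0.51 with a 95% interval from -1.44 to 0.42 (adjusted p = 0.566, edgeR), a range that spans both a decrease and an increase, so that no difference was detectable at this depth. It was -0.24 without GAF knockdown replicate 2 and -0.88 without replicate 3.

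*Mi-2*, the other targeted gene, is also overlapped, with *Su(Tpl)* covering 72.0% of it on the same strand, but 83.8% of the remaining 7874 bp is exonic. It was at 431 and 436 CPM in the GAF knockdown, against 300 and 311 CPM in the Mi-2 knockdown, and was called higher in the GAF knockdown (log2 fold change 0.50, adjusted p = 0.0109, edgeR). Without GAF knockdown replicate 2 or replicate 3 the size hardly moved, at 0.52 and 0.49, but the adjusted p was 0.146 and 0.184 and the call was lost.

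None of the other 7 genes was overlapped on its own strand, and each gave counts from its whole length. Their values in each library are shown in the plot of CPM by library.

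**Figure D1:**
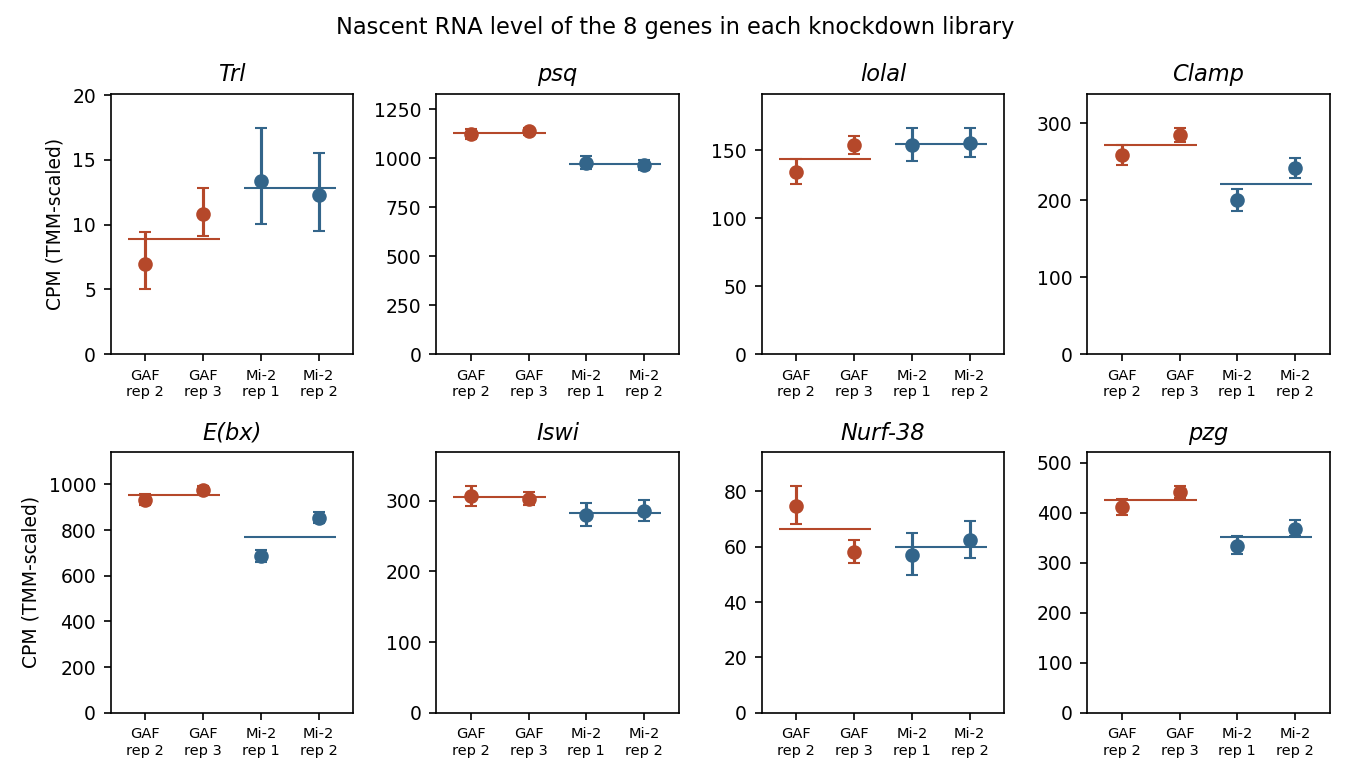
CPM (TMM-scaled, linear axis from 0) of each of the 8 genes in GAF knockdown replicates 2 and 3 (red) and Mi-2 knockdown replicates 1 and 2 (blue); whiskers are 95% exact Poisson intervals, which cover counting error only, and horizontal lines are group means. For *psq* the groups lie apart and each pair is close, at 1123 and 1139 CPM in the GAF knockdown against 978 and 966 CPM in the Mi-2 knockdown, whereas the groups overlap for *Nurf-38*.

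*psq* (FBgn0263102; chromosome 2R, plus strand, 10557888 to 10617280) is the longest of the genes at 59393 bp, of which 12.8% is exonic, with 15 annotated transcripts from 5 start sites. It gave 6925 and 14480 counts in the GAF knockdown, against 3877 and 5353 in the Mi-2 knockdown, or 1131 ± 10.9 CPM in the GAF knockdown and 972 ± 8.51 CPM in the Mi-2 knockdown (SD, n = 2 each). The libraries of each knockdown were nearly alike and the groups did not overlap. The log2 fold change was 0.22 with a standard error of 0.0708 and a 95% interval from 0.06 to 0.38, just short of a call (adjusted p = 0.110, edgeR). DESeq2, which the study used for its neuRNA-seq, called it higher with an adjusted p of 0.0290 and a log2 fold change of 0.22. When a trend of the log2 ratio on gene length was removed, its log2 fold change was 0.50 and it was called (adjusted p = 0.00356, edgeR), so that the size of the difference for this long gene depends on how gene length is treated.

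*lolal* (FBgn0022238; chromosome 2R, minus strand, 18154095 to 18158192), the gene of Batman, gave 825 and 1954 counts in the GAF knockdown, against 610 and 860 in the Mi-2 knockdown. Its levels were 134 and 154 CPM in the GAF knockdown, against 154 and 155 CPM in the Mi-2 knockdown. GAF knockdown replicate 2 was low and the other 3 libraries were close together. *lolal* had a log2 fold change of -0.10 with a 95% interval from -0.40 to 0.19 (adjusted p = 0.729, edgeR), and with only replicate 3 of the GAF knockdown it was -0.01. The binding partners *psq* and *lolal* thus had log2 fold changes of opposite sign, neither of them called. The difference between these 2 log2 fold changes was not tested.

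*Clamp* (FBgn0032979; chromosome 2L, minus strand, 22165720 to 22169143) gave 1597 and 3628 counts in the GAF knockdown, against 794 and 1342 in the Mi-2 knockdown. These were 259 and 285 CPM in the GAF knockdown, against 200 and 242 CPM in the Mi-2 knockdown, so that the groups were apart but Mi-2 knockdown replicate 2 lay nearer to the GAF knockdown than to its own replicate. The log2 fold change was 0.30 with a 95% interval from 0.02 to 0.58 and was not called (adjusted p = 0.218, edgeR). Without Mi-2 knockdown replicate 2 it was 0.46, and without replicate 1 it was 0.17, each time with a single Mi-2 knockdown library left.

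The NURF genes differed in how closely their libraries agreed. *E(bx)* (FBgn0000541; chromosome 3L, minus strand, 233926 to 246912), the gene of the subunit that contacts transcription factors and histone marks, gave 5751 and 12403 counts in the GAF knockdown, against 2716 and 4726 in the Mi-2 knockdown. Its levels were 933 and 975 CPM in the GAF knockdown, against 685 and 853 CPM in the Mi-2 knockdown. It had the largest positive log2 fold change of the 8 genes, 0.31 with a standard error of 0.103 and a 95% interval from 0.08 to 0.54 (adjusted p = 0.119, edgeR), and was not called. DESeq2 called it higher (adjusted p = 0.0258, log2 fold change 0.31). Mi-2 knockdown replicate 1 set much of its size: without that library the log2 fold change was 0.16, and without Mi-2 knockdown replicate 2 it was 0.49. Each of these fits left a single Mi-2 knockdown library, whose spread could not be measured.

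*Iswi* (FBgn0011604; chromosome 2R, plus strand, 12636671 to 12640628), the ATPase that NURF shares with the ACF and CHRAC complexes, was the steadiest of the NURF genes. It gave 1892 and 3857 counts in the GAF knockdown, against 1111 and 1585 in the Mi-2 knockdown. Its levels were 305 ± 2.54 CPM in the GAF knockdown and 283 ± 4.08 CPM in the Mi-2 knockdown (SD, n = 2 each). Its log2 fold change was 0.11 with a 95% interval from -0.11 to 0.33 (adjusted p = 0.613, edgeR), and leaving out single libraries gave 0.09 to 0.13. A difference of more than 0.33 on the log2 scale in either direction lay outside the interval.

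*Nurf-38* (FBgn0016687; chromosome 2R, minus strand, 24558967 to 24561087) was the only one of the 8 whose groups overlapped. It gave 461 and 740 counts in the GAF knockdown, against 226 and 346 in the Mi-2 knockdown, or 74.8 and 58.2 CPM in the GAF knockdown, against 57.0 and 62.5 CPM in the Mi-2 knockdown. GAF knockdown replicate 2 was high, and the other 3 lay between 57.0 and 62.5 CPM. This gave a log2 fold change of 0.15 with a 95% interval from -0.28 to 0.58 (adjusted p = 0.734, edgeR), and without that library it turned to -0.04.

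*pzg* (FBgn0259785; chromosome 3L, plus strand, 21286099 to 21290310) gave 2530 and 5616 counts in the GAF knockdown, against 1325 and 2040 in the Mi-2 knockdown. Its levels were 410 and 442 CPM in the GAF knockdown, against 334 and 368 CPM in the Mi-2 knockdown. Both GAF knockdown libraries were above both Mi-2 knockdown libraries, with a log2 fold change of 0.28 and a 95% interval from 0.06 to 0.50 (adjusted p = 0.143, edgeR). Without Mi-2 knockdown replicate 2 it was 0.36, and without Mi-2 knockdown replicate 1 it was 0.21, each time with a single Mi-2 knockdown library left.

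In the main fit by edgeR, 0 of the 8 genes were called in either direction, where 9.46% of all genes tested were (3.40% higher and 6.06% lower). This count depended on the setting. Over 7 settings that used all libraries, *psq* was called higher in 5, *E(bx)* in 4, *pzg* in 2 and *Clamp* in 1. *Trl*, *lolal*, *Iswi* and *Nurf-38* were called in 0 of them. Without adjustment, p was under 0.05 for 4 of the 8 (*psq*, *Clamp*, *E(bx)* and *pzg*) and for 1571 of all 7826. DESeq2 called 2 of them higher, *psq* and *E(bx)*, where it called 292 higher and 498 lower among the 11399 genes it fitted. Those 11399 include genes below the filter used for edgeR, so this share cannot be compared directly with that of edgeR. The libraries of the groups did not overlap for 7 of the 8, against 50.8% of all genes tested. The log2 fold change was positive for 6 of the 8, with a median of 0.18, where the median over all genes tested was -0.00242. The summed level of the 8 genes was 3248 and 3367 CPM in the GAF knockdown, against 2703 and 2946 CPM in the Mi-2 knockdown, and *psq* and *E(bx)* made up most of it in each library.

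**Figure D2:**
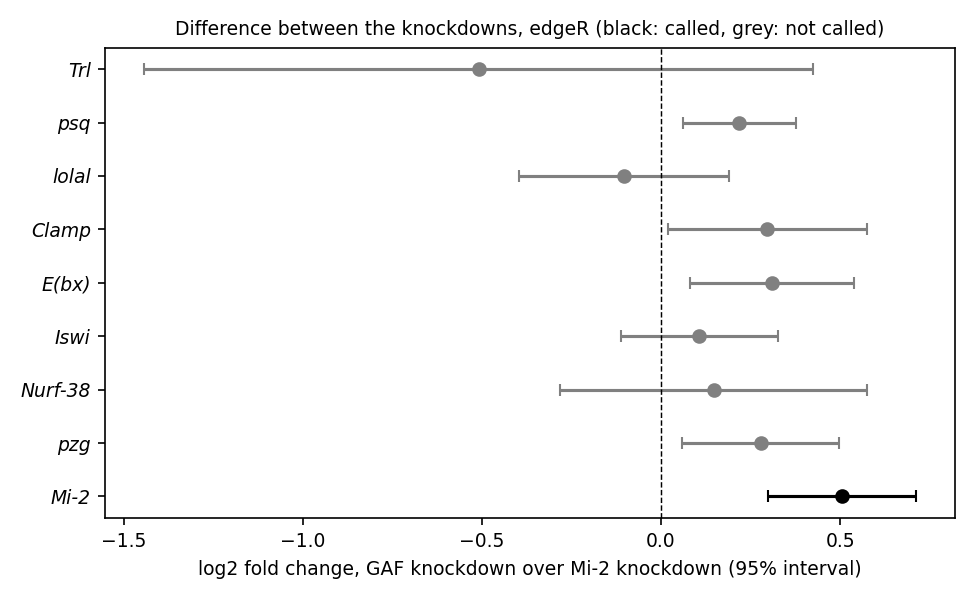
Log2 ratio of GAF to Mi-2 knockdown for the 8 genes and for the targeted gene *Mi-2* (horizontal axis, positive values are higher in the GAF knockdown); bars are 95% intervals from the edgeR fit, black marks a called gene and grey a gene not called. The interval of *Trl*, from -1.44 to 0.42, is the widest, and of the genes drawn only *Mi-2*, at 0.50, was called.

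Leaving out 1 library at a time moved the genes in groups, as the plot of these values shows. *Clamp*, *E(bx)* and *pzg* shared 1 order: their log2 fold changes were highest without Mi-2 knockdown replicate 2 and lowest without Mi-2 knockdown replicate 1. All 3, like *Iswi* and *Nurf-38*, had their lowest CPM in Mi-2 knockdown replicate 1, the shallowest library. *psq*, at 0.20 to 0.23, hardly moved. *Iswi* had the same order as *Clamp*, *E(bx)* and *pzg* but hardly moved either, at 0.09 to 0.13. *Trl* and *lolal* moved with GAF knockdown replicate 2, in which both had their lowest CPM, and *Nurf-38*, whose highest CPM was in that library, moved the other way. The part of depth or of a single culture in these shifts was not tested.

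**Figure D3:**
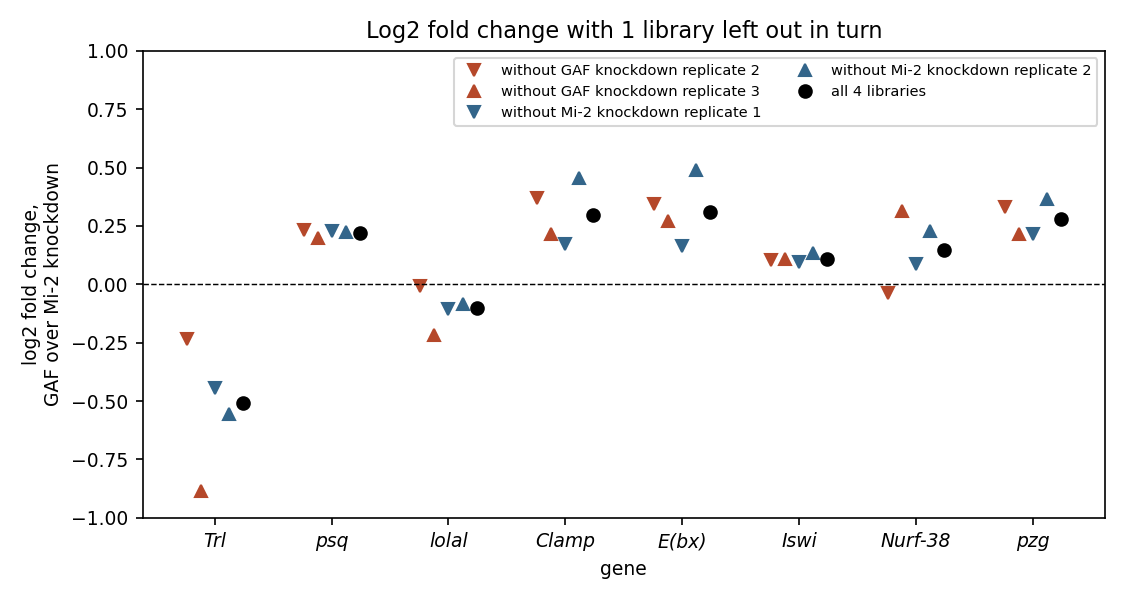
Log2 ratio of GAF to Mi-2 knockdown (vertical axis) for each of the 8 genes with 1 library left out (triangles, red for a GAF knockdown and blue for a Mi-2 knockdown library) and with all 4 libraries (black). *E(bx)* runs from 0.16 to 0.49 and *Trl* from -0.88 to -0.24, whereas *psq* stays between 0.20 and 0.23.

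The levels of different genes were compared per kb of the stretch whose reads were assigned to the gene alone. On this scale *pzg* was the highest, with a mean over the 4 libraries of 92.3 CPM per kb, followed by *Iswi* at 74.3, *Clamp* at 72.1 and *E(bx)* at 66.3 CPM per kb. *lolal* followed at 36.4, *Nurf-38* at 29.8 and *psq* at 17.7 CPM per kb, and *Trl* was the lowest at 4.25 CPM per kb. The ranges over the libraries were 70.8 to 77.5 CPM per kb for *Iswi*, 58.5 to 83.3 for *Clamp* and 52.8 to 75.1 for *E(bx)*, and these ranges overlapped. Within each library, however, *E(bx)* was below both *Iswi* and *Clamp*, whereas the order of *Iswi* and *Clamp* differed between libraries. The ranges of *lolal* (32.7 to 37.9) and *Nurf-38* (26.9 to 35.3) overlapped as well, with *Nurf-38* above *lolal* in GAF knockdown replicate 2 alone. Among 7707 tested genes with a length, *pzg* stood at percentile 96.6, *psq* at percentile 55.2 and *Trl* at percentile 20.9.

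Within a library, the levels of the NURF genes per kb were set against that of *Iswi*. *Caf1-55*, the histone chaperone subunit, was at 0.908 to 1.00 times the level of *Iswi* and *E(bx)* at 0.745 to 0.980 times. *Nurf-38* was lower than *Iswi* in every library, at 0.358 to 0.455 times its level per kb. *Acf*, the partner of Iswi in ACF and CHRAC, was at 0.359 to 0.481 times the level of *Iswi*. For *E(bx)* the lowest proportion was that of Mi-2 knockdown replicate 1, at 0.745, and the other 3 libraries were between 0.909 and 0.980.

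The order of the levels followed, apart from *Nurf-38* and *lolal*, the exonic share of the counted stretch, which was 97.2% for *pzg*, 92.1% for *Iswi*, 84.6% for *Clamp*, 77.6% for *E(bx)*, 69.8% for *Nurf-38*, 58.6% for *lolal*, 12.8% for *psq* and 0% for *Trl*. Across the 8 genes Spearman's rho between this share and the mean CPM per kb was 0.976, and across the 7707 tested genes with a length it was 0.245. These points share the same 4 libraries, and genes are not independent replicates. The same counts, with intronic reads kept in, were also divided by exonic length alone, a scale chosen after seeing the data. *psq* was then at 138 CPM per kb and became the highest of the 7 genes with counted exons, whereas *E(bx)* was at 85.5 and *Nurf-38* at 42.6. For *psq*, with 12.8% of its length exonic, this value is not a level of exonic RNA. The place of *psq*, a gene that is mostly intron, thus depends on the length used, whereas *Nurf-38* was below *E(bx)*, *Iswi* and *pzg* on both scales.

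**Figure D4:**
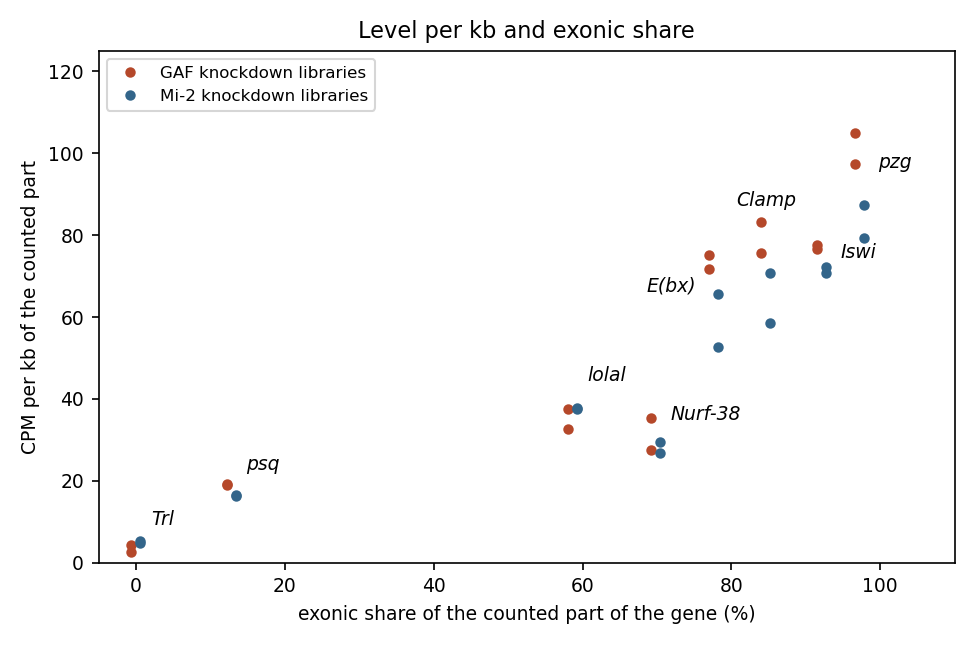
CPM per kb of the stretch counted for each gene (vertical axis) against the exonic share of that stretch in percent (horizontal axis), with 1 point per library; GAF knockdown points (red) and Mi-2 knockdown points (blue) are set slightly to the left and right of the true share. *Trl*, at 0% exonic, lies at 4.25 CPM per kb on average and *pzg*, at 97.2%, at 92.3.

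Genes that work with these proteins were listed by known role, with earlier results of these data known, and read in the same fit. Of them, 51 had a row and 44 were tested. Of those tested, 9 were called higher and 4 lower in the GAF knockdown (background 3.40% higher and 6.06% lower). With a library left out, 1 group held a single library. Fewer genes were then called with either GAF knockdown library left out and more without Mi-2 knockdown replicate 2. This held among these genes and over all genes tested alike. Without Mi-2 knockdown replicate 1, more genes were called over all genes tested but not among these genes. Of 6 other subunits of ISWI complexes 0 were called by edgeR, with a median log2 fold change of 0.07. The largest in either direction were *Acf* at 0.34 and *Chrac-16*, a small CHRAC subunit with 47 to 76 counts, at -0.68. *Acf* and *CG8677*, the RSF subunit, had an unadjusted p under 0.05, DESeq2 called *CG8677* higher, and edgeR called both without Mi-2 knockdown replicate 2. Of 4 partners of Putzig (*Chro*, *Dref*, *Trf2* and *JIL-1*) 0 were called by edgeR, 0 by DESeq2 and 0 had an unadjusted p under 0.05, with a median of 0.09. Without Mi-2 knockdown replicate 2, *Chro* was called higher.

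The subunits of the Brahma remodelers, the SWI/SNF complexes of the fly that GAF is known to work with, were all above 0. Of 10 tested, 4 were called higher and 0 lower (3.40% and 6.06% of all genes tested), and the median log2 fold change was 0.34. *mor*, a core subunit, was at 277 and 265 CPM in the GAF knockdown, against 186 and 208 CPM in the Mi-2 knockdown, and *osa*, which marks the BAP form, was at 1169 ± 63.0 CPM in the GAF knockdown and 919 ± 71.8 CPM in the Mi-2 knockdown (SD, n = 2 each). *polybromo* and *e(y)3*, which mark the PBAP form, had log2 fold changes of 0.38 and 0.33. The ATPase gene *brm* was at 0.20 and was not called (adjusted p = 0.308, edgeR). With either GAF knockdown library left out 0 of the 10 were called, with medians of 0.32 and 0.30. Without Mi-2 knockdown replicate 1 the median was 0.21, and *polybromo* and *e(y)3* were no longer called. Without Mi-2 knockdown replicate 2 the median was 0.45. Each of these fits left a single library in a group.

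*M1BP* was listed with the cofactors of GAF, although it binds the core promoters of another class of paused genes. It was called higher, with 44.0 ± 2.82 CPM in the GAF knockdown and 23.6 ± 3.39 CPM in the Mi-2 knockdown (SD, n = 2 each). Its log2 fold change was 0.90 (adjusted p = 0.0577, edgeR). With either GAF knockdown library left out it was no longer called. *Bin1*, which encodes the SAP18 protein of a histone deacetylase complex, was called lower, with 700 ± 67.3 CPM in the GAF knockdown and 1390 ± 3.45 CPM in the Mi-2 knockdown (SD, n = 2 each; log2 fold change -0.99, adjusted p = 1.55e-04, edgeR), and this call held with each library left out. The FACT genes *dre4* (log2 fold change -0.01) and *Ssrp* (0.15) were not called, and *corto* did not pass the filter.

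Of 10 other tested BTB genes, 2 were called higher and 3 lower (3.40% and 6.06% of all genes tested). The genes called higher were *mod(mdg4)* (0.42) and *Cp190* (0.39), which encode insulator proteins. Those called lower were *fru* (-0.55), *bab2* (-0.54) and *lola* (-0.20), long genes that encode BTB transcription factors. With the trend on gene length removed, 3 were higher (*br*, *chinmo* and *mod(mdg4)*) and 0 lower, and the list's median was 0.08 in place of -0.11, so that its direction changed with the treatment of gene length. The median was also positive, at 0.10, without Mi-2 knockdown replicate 2. With either GAF knockdown library left out only *fru* was called. Without Mi-2 knockdown replicate 1, *Cp190* was not.

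Of 6 genes that work with CLAMP in dosage compensation or at the histone locus, 0 were called by edgeR, 3 (*msl-1*, *mof* and *mxc*) had an unadjusted p under 0.05 and DESeq2 called *msl-1* higher. Their median was 0.30, and without Mi-2 knockdown replicate 2 *msl-1* and *mxc* were called higher. Of 9 genes with classically described GAGA elements at their promoters, 4 were tested, and the homeotic and segmentation genes *Ubx*, *en*, *eve*, *ftz* and *Kr* had at most 13 counts in any library. *Act5C*, which encodes a cytoplasmic actin, was called higher (log2 fold change 0.31, adjusted p = 0.0702), as was *Hsp26* (1.48, adjusted p = 1.55e-04, both by edgeR). *Act5C* was not called with DESeq2, with upper-quartile scaling, with the trend on gene length removed, at an adjusted p under 0.05, or with either GAF knockdown library left out. *alphaTub84B*, whose groups overlapped, was not called (log2 fold change 0.32, adjusted p = 0.221, edgeR). *Eip74EF*, an early gene of the ecdysone response, stood at -0.57 on the log2 scale (adjusted p = 0.107, edgeR). With no filter on low counts *alphaTub84B* was called higher and *Eip74EF* lower. The calls of *Eip74EF* varied further. *Eip74EF* was also called lower by DESeq2, with upper-quartile scaling, and with either Mi-2 knockdown library left out.

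**Figure D5:**
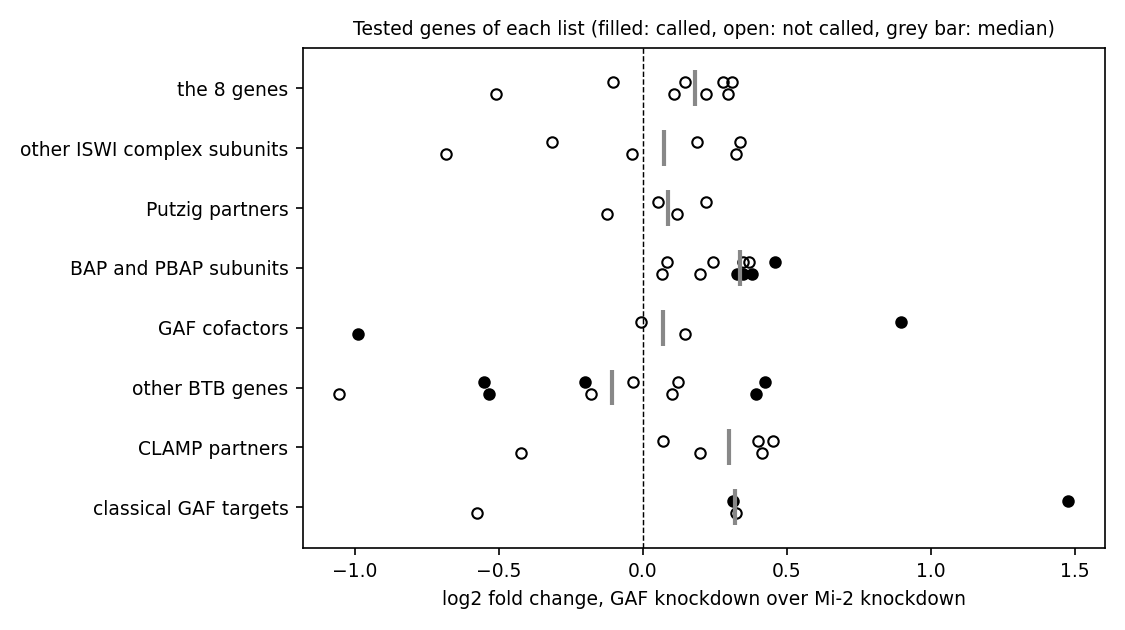
Log2 ratio of GAF to Mi-2 knockdown (horizontal axis) of each tested gene in each list; filled points were called, open points were not, and grey bars are list medians. None of the 8 genes is filled, and all 10 Brahma complex genes lie above 0 with a median of 0.34.

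As none of the 8 was called in the main fit by edgeR, the pattern across libraries was described for the 2 with the largest absolute log2 fold change, *Trl* and *E(bx)*. Likeness was the root mean square difference of log2 CPM, centred over the 4 libraries, among genes of at least 10 CPM on average. The genes most like *E(bx)* were *pigs* (0.0121), *Sf3a1* (0.0127) and *CG8677* (0.0138), the last of which is the RSF subunit above, with 369 and 377 CPM in the GAF knockdown, against 266 and 330 CPM in the Mi-2 knockdown. In all, 491 genes lay within 0.1 of *E(bx)*. The genes most like *Trl* were *CG10866* (0.0267), *Ugt35C1* (0.0336) and *CG40228* (0.0415), and 42 genes lay within 0.1 of it. Counting error was not part of this measure. For *Trl*, with 43 counts in GAF knockdown replicate 2, the exact Poisson interval there ran from 5.05 to 9.39 CPM. The differences listed for *Trl* are far smaller than this range, so its most alike genes cannot be ranked. How many genes were compared is not given, so 491 and 42 cannot be read as shares.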

How the data were processed

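The values deposited by the authors are raw counts of reads per gene, 1 column per library, with no normalization and no pooling. According to the labels and the study's methods for neuRNA-seq, reads were trimmed with cutadapt 1.10, mapped to dm6 with HISAT2 2.0.4 and counted with featureCounts 1.5.0-p3 on the sense strand over whole gene bodies. A second table was identical and was not used. Of the 10 library columns, 4 matched a sample of the series by name; the other 6 matched none and were used in no step, so comparisons with mock treatment were not made. GAF knockdown replicate 1 was not analysed here.

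Counts were filtered with filterByExpr, scaled by TMM and tested with edgeR 4.0.16 (glmQLFit and glmQLFTest, R 4.3.3), with treatment as the only term and Benjamini-Hochberg adjustment over all genes tested, in a two-sided test. An adjusted p under 0.1, the threshold of the study, was a call. Standard errors were derived from the F statistic. DESeq2 1.42.0, other scalings, no filter, an adjusted p under 0.05, removal of a lowess trend on gene length and leaving out each library were the alternatives. The test was checked on simulated counts. A count of 0 allows up to 3 counts, or 0.236 to 0.757 CPM.

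Gene positions and overlaps come from the Ensembl release of dm6 in use, which matched 17464 of 17659 gene identifiers. The genes and lists were chosen with earlier results of these data known. Genes were named if they were among the 8, in a list, targeted, or most alike in pattern. No sequences are shown.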

Additional observations from a re-analysis of the deposited data

How the results depend on the processing

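Over all genes, 266 were higher and 474 lower in the GAF knockdown. With no filter on low counts 494 were higher, and at an adjusted p under 0.05 128 were higher. With a library left out, between 32 and 998 were higher and between 154 and 818 lower; a lone library was then assumed to vary like the other group. Of the 8 genes, 0 were called; 1 was higher with DESeq2 size factors, 3 with library size alone, 4 with no filter, 2 with DESeq2, 2 with the gene length trend removed, and 0 to 4 with a library left out, and 0 were lower in each of these. Among the related genes, 9 were higher and 4 lower; 15 were higher with no filter, 4 at an adjusted p under 0.05, and 1 was lower with the length trend removed, while leaving out a library gave 1 to 17 higher and 2 to 5 lower. The causes were not tested, apart from the stricter threshold, which lowers counts by construction. The direction of each of the 8 genes was kept in the 7 settings that used all libraries, and *Nurf-38* ranged from -0.0356 (without GAF knockdown replicate 2) to 0.314 (without GAF knockdown replicate 3). The median log2 fold change of all genes lay between -0.0306 and 0.0313 over the scalings. The exonic length scale, which keeps intronic reads in the counts, was added after seeing the data and moved *psq* to 138 CPM per kb. The depth limits *Trl*, with 43 to 138 counts. No paired analysis was possible because the analysed libraries of the knockdowns share only replicate number 2.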
